A study of Rattus norvegicus with 8 samples.

Results

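Peroxisome and plasmalogen genes were followed in cells of the rat brain that were sorted as oligodendrocyte progenitors or as oligodendrocytes. The members were the genes whose symbol begins with Pex and a digit, the Abcd and Acox families, the enzymes of plasmalogen synthesis, and a set of named enzymes and membrane proteins of the peroxisome. A gene was a member by its symbol alone, whatever its values, and 38 of the 14217 genes measured were members, read by 48 of 31042 probe sets. Whole rat brains at postnatal day 7 were the source, and flow cytometry gave either A2B5+ cells, which the labels call oligodendrocyte progenitors, or GalC+ cells, called oligodendrocytes there. A2B5 is a ganglioside epitope of glial progenitors and GalC is galactocerebroside, a lipid of oligodendrocytes and myelin. Each population had 4 biological replicates, each a pooled litter of 10 pups hybridised to its own Affymetrix array, with no strain, genotype or treatment given in the labels. A value is a probe set's signal divided by its own median over the 8 arrays, so values compare arrays, not genes.

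Peroxisomes are small organelles bounded by a membrane that shorten very long and branched fatty acids and begin the synthesis of ether lipids. Plasmalogens are ether phospholipids with a vinyl ether bond, and as ethanolamine plasmalogens they are a major lipid class of myelin. Proteins reach the organelle through peroxins, encoded by Pex genes: Pex5 and Pex7 carry enzymes in from the cytosol, and other peroxins build the membrane or recycle the receptors. Inherited loss of peroxins or of the ether lipid enzymes causes diseases that affect white matter.

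The sorted populations were read against marker genes. All 11 measured markers of myelin and oligodendrocytes were higher in GalC+ (median log2 fold change 4.01, largest Mobp, 5.26). Of 8 progenitor markers 4 were lower and none higher (median -0.46, largest change Nxph1, -2.35). The other 4, Cspg4 (0.01), Lhfpl3 (-0.09), Ptprz1 (-0.24) and Vcan (0.67), did not pass. Markers of other cells moved with the sort. Of 13 neuron markers 11 were lower in GalC+ (median -2.16, largest change Eomes, -2.81). The mean of the list on the log2 scale was 0.43 to 0.95 on A2B5+ arrays and -1.62 to -0.45 on GalC+ arrays. Of 14 macrophage markers 12 were higher (median 1.05), with list means of -1.83 to -1.04 on A2B5+ and 0.29 to 0.82 on GalC+ arrays. The largest of these rises, that of Cd163 (5.41), was above that of Mobp. All 12 mural and fibroblast markers were higher (median 1.32, largest Myh11, 3.13, list means -1.22 to -0.54 against 0.32 to 1.07). None of 7 endothelial or 9 astrocyte markers passed the test. With the replicate number as a block, 1 endothelial marker was higher (Esam, limma, adjusted p = 0.0136) and 2 were lower (Kdr, 0.0332, and Vwf, 0.0492), and 1 astrocyte marker was lower (Aldh1l1, 0.0246). The block also added Itgam to the higher macrophage markers (13 of 14) and made 1 progenitor marker, Vcan, higher. The values hold no level, so that which of these markers lie near background could not be read, and the part of these cells in the results below was not tested. In sorted pools, fewer cells of a type and less RNA per cell cannot be told apart.

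Most of the peroxisomal genes did not pass the test, and apart from Pex5l the largest changes among the members were those of Far1 and Agps, of plasmalogen synthesis. GalC+ cells had higher Far1 (1.85-fold), Agps (1.60-fold), Ehhadh (1.44-fold), Pex11a (1.35-fold) and Pex10 (1.23-fold), and higher Pex5l (3.42-fold), whose product is not a peroxisomal protein. They had lower Abcd2 (1.5-fold), Abcd4 (1.23-fold) and Pex26 (1.21-fold). These 9 of 38 genes passed limma's test with an adjusted p under 0.05 over all genes, 6 higher and 3 lower. Among all genes 35.7% passed, 18.2% higher and 17.5% lower, so the share of members called was below the background. The median log2 fold change of the members was 0.09, against 0.04 over all genes, and their median size of change without regard to sign was 0.14, against 0.22. The A2B5+ and GalC+ arrays did not overlap for 10 of 38 members, the 9 above and Amacr, and did not overlap for 36.2% of all genes. Without Pex5l, 8 of 37 members passed, 5 higher and 3 lower.

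**Figure D1:**
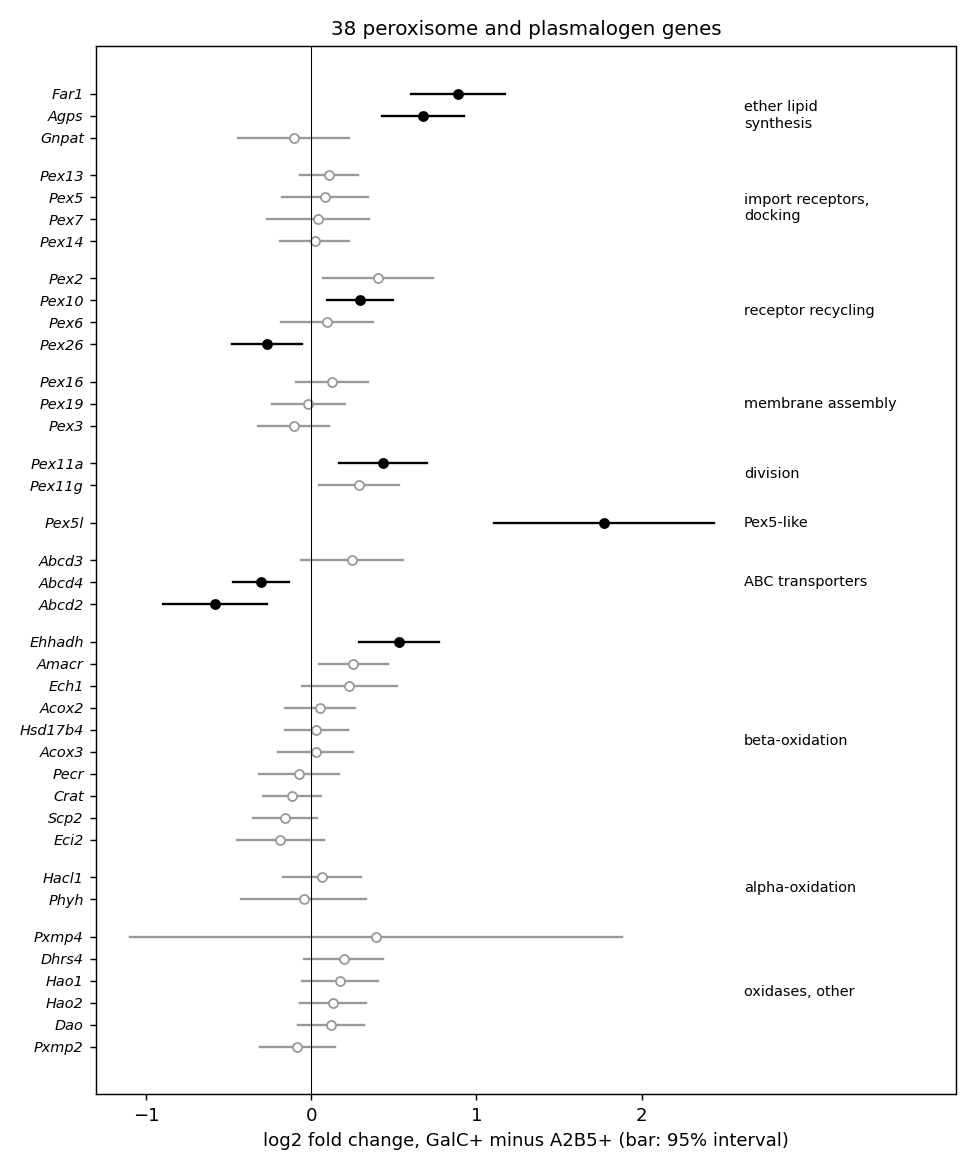
Log2 fold change of each of the 38 members, GalC+ minus A2B5+ (x axis), with its 95% interval, grouped by role; filled black points passed the test (adjusted p under 0.05) and open grey points did not. Far1, Agps, Ehhadh, Pex11a, Pex10 and Pex5l lie to the right of 0 and Abcd2, Abcd4 and Pex26 to the left, and Pxmp4 has an interval from -1.10 to 1.88.

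Plasmalogen synthesis was read step by step. Gnpat encodes the acyltransferase that adds a fatty acid to dihydroxyacetone phosphate, Far1 the reductase that supplies fatty alcohol and limits the rate of the pathway, and Agps the synthase that swaps the fatty acid for the alcohol and so forms the ether bond. For Far1 the A2B5+ arrays read 0.69, 0.823, 0.738 and 0.725 in replicates 1 to 4, and the GalC+ arrays 1.177, 1.708, 1.471 and 1.204. Every GalC+ array stood above every A2B5+ array (mean ratio 1.39 ± 0.25 against 0.744 ± 0.056, SD, n = 4 each). The log2 fold change of Far1 was 0.89 ± 0.13 SE (limma, adjusted p = 6.37e-04).

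For Agps the A2B5+ arrays read 0.812, 0.812, 0.912 and 0.777, and the GalC+ arrays 1.318, 1.386, 1.536 and 1.088. The groups did not overlap, and GalC+ replicate 4 was the lowest of its group. On that array the oligodendrocyte markers also had their lowest GalC+ list mean, 0.91 on the log2 scale against 1.03 to 1.80 on the other GalC+ arrays. The macrophage and mural lists had their lowest GalC+ means there too, 0.29 and 0.32. The neuron and progenitor lists had their highest GalC+ means there, -0.45 and -0.18. Whether Agps follows any of these lists was not tested. The log2 fold change of Agps was 0.68 ± 0.11 SE (limma, adjusted p = 0.00135). Both Far1 and Agps passed under each of the 17 alternative settings, at 0.78 to 0.96 and 0.60 to 0.77 on the log2 scale.

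Gnpat, the partner enzyme of Agps, did not pass. Its probe set read 0.928, 1.067, 1.005 and 1.042 on A2B5+ arrays and 0.844, 0.995, 1.254 and 0.733 on GalC+ arrays, so that GalC+ held both the highest and the lowest value. The log2 fold change was -0.11 ± 0.15 SE (limma, adjusted p = 0.612) with a 95% interval of -0.44 to 0.23. That interval lies below the fold changes of Far1 and Agps, although the difference between the genes was not tested. Its other probe set gave -0.07 ± 0.09 (limma, adjusted p = 0.595).

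The stretches before the annotated starts of Agps and Gnpat are printed because these enzymes catalyse successive steps and gave different calls. They come from RefSeq, build GRCr8, plus strand, 5′ to 3′, 250 bases each, at chr3:81154349-81154598 for Agps and chr19:69719457-69719706 for Gnpat. Capitals mark matches on either strand to CCAAT (the CCAAT box), GGGCGG (the GC box), AGGTCA (the core bound by PPAR and other nuclear receptors) or ACAANG (the core bound by SOX factors).
Agps: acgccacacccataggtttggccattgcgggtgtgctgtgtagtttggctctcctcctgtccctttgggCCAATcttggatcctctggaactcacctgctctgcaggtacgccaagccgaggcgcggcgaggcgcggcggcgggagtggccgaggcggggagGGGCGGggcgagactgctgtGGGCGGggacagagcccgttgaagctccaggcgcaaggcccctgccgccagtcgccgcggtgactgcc
Gnpat: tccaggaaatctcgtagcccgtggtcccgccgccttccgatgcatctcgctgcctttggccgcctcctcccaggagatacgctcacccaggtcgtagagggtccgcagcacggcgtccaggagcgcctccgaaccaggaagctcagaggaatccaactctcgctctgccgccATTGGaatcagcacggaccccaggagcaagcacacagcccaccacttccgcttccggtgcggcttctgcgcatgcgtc
The Agps stretch held 1 CCAAT and 2 GGGCGG matches, and the Gnpat stretch 1 CCAAT match on the minus strand and 0 GGGCGG matches. Neither held AGGTCA or ACAANG, and no marked matches overlapped. Of 38 members 34 had such a stretch in the table. GGGCGG was found in 70.6% of these 34, against 52.3% of the 13243 stretches of genes on the array, CCAAT in 35.3% against 34.6%, ACAANG in 32.4% against 30.0%, and AGGTCA in 14.7% against 11.8%. For 16 of the 34, Far1 among them, the stretch overlapped the annotated span of the gene, and none of those is printed.

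Genes that complete, remodel or break down ether lipids outside the member set were counted from a separate list. The list also held genes of general phospholipid metabolism, Plpp2, Pla2g4a and Ptdss2 among them, so its counts are not of ether lipid genes alone. Of 18 measured, 7 were higher in GalC+, 1 was lower and 10 did not pass (median log2 fold change 0.27). Among all genes 18.2% were higher and 17.5% lower. The largest rises were those of Plpp2, a lipid phosphate phosphatase (1.14 ± 0.13 SE, limma, adjusted p = 2.07e-04), and Pla2g4a, the cytosolic phospholipase that releases arachidonic acid (1.07 ± 0.23, limma, adjusted p = 0.00535). The lower gene was Ptdss2, which makes phosphatidylserine from phosphatidylethanolamine (-0.46 ± 0.12, limma, adjusted p = 0.0121). Ptdss2 did not pass as the mean of its 3 probe sets (-0.14, adjusted p = 0.181). The other 5 higher genes, singled out after their values were seen, were Peds1, Selenoi, Pcyt2 and Cept1 of the ethanolamine lipid branch, and Agmo. The ethanolamine kinase gene Etnk1, of the same branch, did not pass (0.13 ± 0.12, limma, adjusted p = 0.413, or 0.07 averaged over its 2 probe sets).

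Peds1 encodes the desaturase that introduces the vinyl ether bond and so makes a plasmalogen. It read 0.799, 0.681, 0.818 and 0.791 on A2B5+ arrays and 1.182, 1.481, 1.415 and 1.276 on GalC+ arrays, with no overlap. Its log2 fold change was 0.79 ± 0.10 SE (limma, adjusted p = 3.35e-04). Selenoi, the phosphotransferase that attaches ethanolamine to the lipid, read 0.612 to 0.817 on A2B5+ and 1.183 to 1.879 on GalC+ arrays (1.00 ± 0.15, limma, adjusted p = 9.38e-04). Pcyt2, which activates the ethanolamine, was higher by 0.60 ± 0.11 (limma, adjusted p = 0.00276), and Cept1, a choline and ethanolamine phosphotransferase, by 0.40 ± 0.11 (limma, adjusted p = 0.0150). With the spread of each gene alone Cept1 did not pass (no shared prior, all genes, adjusted p = 0.0869). Agmo, the monooxygenase that cleaves the ether bond of alkylglycerols, was higher by 0.91 ± 0.12 (limma, adjusted p = 5.24e-04). Dhrs7b, a reductase acting after Agps, had a log2 fold change of 0.28 ± 0.12 (limma, adjusted p = 0.0964), and Tmem86a, which breaks down lysoplasmalogens, one of 0.18 ± 0.13 (limma, adjusted p = 0.310).

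**Figure D2:**
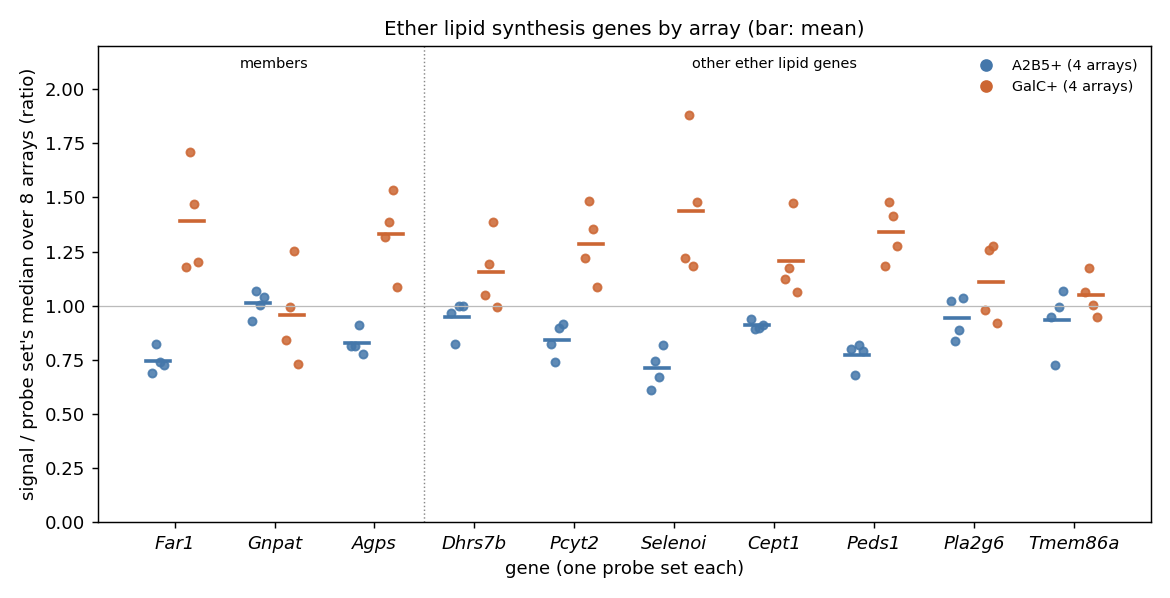
Ratio of each array's signal to the probe set's median over the 8 arrays (y axis) for chosen genes of ether lipid synthesis and breakdown (x axis), A2B5+ in blue and GalC+ in orange, with 4 arrays and a bar at the mean for each. Other genes of the separate list, among them Etnk1, Chpt1, Agmo and Plpp2, are not shown. The GalC+ arrays stand above all A2B5+ arrays for Far1, Agps, Pcyt2, Selenoi, Cept1 and Peds1, and the groups overlap for Gnpat, Dhrs7b, Pla2g6 and Tmem86a.

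Import of enzymes into the peroxisome showed no called change at its receptors. Pex5 recognises the signal at the end of most matrix enzymes, Pex7 brings in Agps and a few others, and Pex13 and Pex14 form the docking site in the membrane. All 4 had log2 fold changes between 0.02 and 0.11, and none passed, where 35.7% of all genes did. Pex7 read 1.05, 0.882, 0.996 and 1.004 on A2B5+ arrays and 0.865, 1.07, 1.305 and 0.86 on GalC+ arrays, and the GalC+ values lay on both sides of the A2B5+ ones. Its log2 fold change was 0.04 (95% interval -0.27 to 0.35, limma, adjusted p = 0.836). Pex5 read 0.998, 0.839, 1.142 and 0.98 on A2B5+ and 0.909, 1.16, 1.002 and 1.122 on GalC+ arrays, a log2 fold change of 0.08 (interval -0.17 to 0.34, limma, adjusted p = 0.599). Its other probe set gave -0.11 (limma, adjusted p = 0.288), so the sign for Pex5 rests on the probe set read. The signs for Pex7 and Pex14 turned with quantile normalization of the arrays.

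The peroxins that recycle the receptors went both ways. Pex2 and Pex10 are subunits of the ubiquitin ligase in the membrane that marks Pex5 for release, Pex6 is an ATPase that pulls it out, and Pex26 anchors that ATPase. Pex10 read 0.995, 0.935, 0.956 and 0.895 on A2B5+ arrays and 1.005, 1.231, 1.205 and 1.211 on GalC+ arrays. The groups touched without overlapping, with GalC+ replicate 1 just above A2B5+ replicate 1. The log2 fold change was 0.30 ± 0.09 SE (limma, adjusted p = 0.0270). With a trended and robust prior Pex10 did not pass (limma, adjusted p = 0.0570), nor with the spread of each gene alone (no shared prior, all genes, adjusted p = 0.0596). Pex10 passed in 3 of 8 fits that each lacked an array, and without A2B5+ replicate 2 or 4, or GalC+ replicate 2, 3 or 4, its adjusted p was 0.0582 to 0.0780.

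Pex26 read 1.136, 1.295, 1.121 and 1.011 on A2B5+ arrays and 0.989, 0.942, 0.981 and 0.864 on GalC+ arrays. All GalC+ values were below all A2B5+ values, by a margin smaller than the spread within A2B5+. Its log2 fold change was -0.27 ± 0.09 SE (limma, adjusted p = 0.0493), which held in 1 of 8 fits that left out an array, the one without A2B5+ replicate 4. It lost its call in 11 of 17 alternatives, among them the trended and robust prior (limma, adjusted p = 0.0637), array weights (0.0702) and the spread of each gene alone (0.0808). In the fit over all probe sets, its adjusted p was 0.0517 (limma), and 0.0456 with the replicate number as a block.

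Pex2 had 2 probe sets with similar changes and different calls. The one with the larger variance, of a type that can match several transcripts, gave 0.40 ± 0.15 SE (limma, adjusted p = 0.0576 over all genes). It passed with the replicate number as a block (limma, adjusted p = 0.0267), as the mean of both probe sets (0.0264) and without GalC+ replicate 1 (0.0245). The other read 0.888, 0.886, 0.867 and 0.963 on A2B5+ arrays and 1.037, 1.234, 1.323 and 1.041 on GalC+ arrays, with no overlap. It gave 0.36 ± 0.10 (limma, adjusted p = 0.0204 over all probe sets). Pex6 gave 0.09 ± 0.12 (limma, adjusted p = 0.582). Counted by probe set, 10 of the members' 48 passed (26.8% of all probe sets did), 8 higher and 2 lower, against a background of 13.5% and 13.2%.

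The peroxins that insert membrane proteins did not pass, where 35.7% of all genes passed. Pex3, Pex16 and Pex19, which together place proteins in the peroxisomal membrane, had log2 fold changes of -0.11, 0.13 and -0.02, with 95% intervals between -0.32 and 0.35. Of the Pex11 proteins, which elongate and divide peroxisomes, Pex11a read 0.882, 0.946, 0.75 and 0.983 on A2B5+ arrays and 1.017, 1.16, 1.279 and 1.361 on GalC+ arrays. The groups did not overlap, and the log2 fold change was 0.43 ± 0.12 SE (limma, adjusted p = 0.0174). Its other probe set showed 0.04 ± 0.09, and averaging the pair gave 0.24 (limma, adjusted p = 0.0556, not passed). With the spread of each gene alone Pex11a did not pass either (no shared prior, all genes, adjusted p = 0.0543). Pex11g gave 0.29 ± 0.11 (limma, adjusted p = 0.0654), and passed without GalC+ replicate 4 (0.35, limma, adjusted p = 0.0313).

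Of 7 genes for the fission machinery that peroxisomes share with mitochondria, Fis1, an adaptor in the outer membrane, was higher (0.41 ± 0.10 SE, limma, adjusted p = 0.0133). The membrane protein Gdap1, known from nerve disease, was lower (-0.91 ± 0.16, limma, adjusted p = 0.00194). The other 5, the fission enzyme Dnm1l among them, did not pass, where 35.7% of all genes passed. Fis1 did not pass with the spread of each gene alone (no shared prior, all genes, adjusted p = 0.0809).

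Pex5l had the largest change of the members. It is related to Pex5 in sequence, and its product is known as an auxiliary subunit of HCN channels and not as an import receptor. It read 0.777, 0.619, 0.835 and 0.594 on A2B5+ arrays and 2.738, 2.951, 3.455 and 1.165 on GalC+ arrays. All GalC+ arrays were higher, replicate 4 by much less than the others. Its log2 fold change was 1.77 ± 0.30 SE (limma, adjusted p = 0.00148), and its other probe set gave 1.02 ± 0.14 (limma, adjusted p = 6.99e-04), again with replicate 4 lowest. It passed under all 17 alternatives.

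Among the ABC transporters, Abcd2 and Abcd4 were lower in GalC+ and Abcd3 did not pass. Abcd2 carries very long chain acyl-CoA into the peroxisome. It read 1.234, 1.209, 1.094 and 1.214 on A2B5+ arrays and 0.85, 0.577, 0.906 and 0.886 on GalC+ arrays. The groups were separate, and GalC+ replicate 2 stood below its group. The log2 fold change was -0.58 ± 0.14 SE (limma, adjusted p = 0.00967), or -0.43 without GalC+ replicate 2. With the spread of each gene alone Abcd2 did not pass (no shared prior, all genes, adjusted p = 0.0850).

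Abcd4, which despite its family acts in the lysosome in the release of cobalamin, read 1.118, 1.124, 1.112 and 1.054 on A2B5+ and 0.946, 0.825, 0.925 and 0.878 on GalC+ arrays. Both groups were tight and apart, and the log2 fold change was -0.30 ± 0.08 SE (limma, adjusted p = 0.0119). Abcd3, a transporter of branched and dicarboxylic acyl-CoA and an abundant peroxisomal membrane protein, gave 0.25 ± 0.14 (limma, adjusted p = 0.196). Without GalC+ replicate 3, which at 0.865 was its lowest GalC+ array, Abcd3 passed (0.37, limma, adjusted p = 0.0367).

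**Figure D3:**
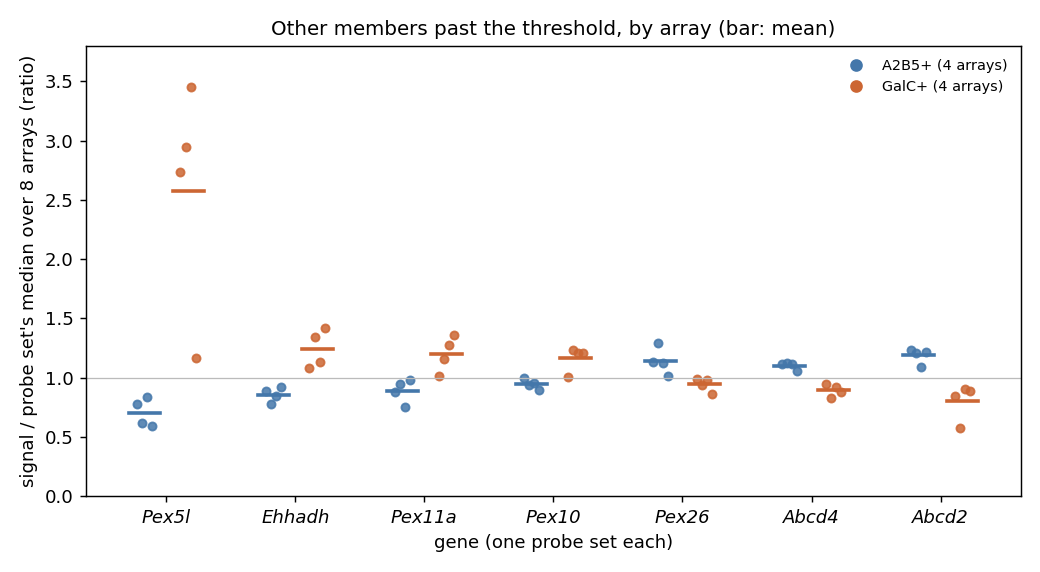
Ratio of each array's signal to the probe set's median over the 8 arrays (y axis) for the members past the threshold other than Far1 and Agps (x axis), A2B5+ in blue and GalC+ in orange, with 4 arrays and a bar at the mean for each. Pex5l spans 1.165 to 3.455 on GalC+ arrays, and in the other genes the groups lie close together without overlapping.

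The beta-oxidation enzymes, which shorten fatty acids in the peroxisome, gave 1 called change among 10 members, where 35.7% of all genes passed. Ehhadh, the bifunctional enzyme of the pathway for straight chains, read 0.884, 0.778, 0.844 and 0.92 on A2B5+ arrays and 1.08, 1.341, 1.129 and 1.419 on GalC+ arrays. GalC+ was higher on every array, and the log2 fold change was 0.53 ± 0.11 SE (limma, adjusted p = 0.00398). It passed under all 17 alternatives.

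Hsd17b4, the other bifunctional enzyme, which handles very long and branched chains, read 1.025, 1.027, 0.975 and 0.972 on A2B5+ and 0.944, 1.075, 1.129 and 0.949 on GalC+ arrays. The groups overlapped throughout, with a log2 fold change of 0.03 (95% interval -0.16 to 0.22, limma, adjusted p = 0.800) whose sign turned with quantile normalization. Scp2, the thiolase and sterol carrier, read 1.068, 0.995, 1.005 and 1.121 on A2B5+ and 0.903, 0.856, 1.023 and 0.978 on GalC+ arrays (-0.16, interval -0.35 to 0.04, limma, adjusted p = 0.186). The racemase Amacr, which prepares branched chains, did not overlap between the groups, at 0.908 to 0.995 against 1.005 to 1.258, and missed the threshold (0.25 ± 0.09 SE, limma, adjusted p = 0.0593). Amacr, with 1 probe set, passed where all genes were read as averages over probe sets (same fold change, limma, adjusted p = 0.0463), and without GalC+ replicate 1 (0.31, limma, adjusted p = 0.0325). The oxidases Acox2 and Acox3, the isomerases Ech1 and Eci2, the reductase Pecr and the carnitine acetyltransferase Crat had log2 fold changes from -0.19 to 0.23, and none passed. Eci2 passed without GalC+ replicate 3 (-0.30, limma, adjusted p = 0.0237).

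Alpha-oxidation, which removes a carbon from phytanic acid, showed no called change in its 2 members, where 35.7% of all genes passed. Its hydroxylase Phyh, deficient in Refsum disease, read 0.993, 1.025, 1.007 and 1.086 on A2B5+ arrays and 0.893, 0.848, 1.494 and 0.867 on GalC+ arrays. GalC+ replicate 3 was the highest of the 8 arrays and the other GalC+ arrays the lowest. With it the log2 fold change was -0.05 ± 0.17 SE (limma, adjusted p = 0.853), and without it -0.24 (limma, adjusted p = 0.0487). The other probe set of Phyh read 1.075 on that array, within its A2B5+ range of 0.939 to 1.102. That probe set gave -0.15 ± 0.09 (limma, adjusted p = 0.263 over all probe sets). The lyase Hacl1 gave 0.06 ± 0.11 (limma, adjusted p = 0.674).

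The oxidases Dao, Hao1 and Hao2, the reductase Dhrs4 and the membrane channel Pxmp2 did not pass, with log2 fold changes from -0.08 to 0.20. The probe sets of Dhrs4 had opposite signs, 0.20 and -0.18, and neither passed. Of 33 other peroxisomal genes on a separate list, 5 were higher in GalC+, 5 lower and 23 did not pass (median 0.04). The shares over all genes were 18.2% higher and 17.5% lower. With the replicate block 6 were higher and 5 lower, the gain being Nudt12 (0.28, limma, adjusted p = 0.0763 without the block and 0.0365 with it). Over all genes the block gave 19.4% higher and 19.7% lower. The polyamine oxidase Paox (1.15 ± 0.11 SE, limma, adjusted p = 9.65e-05) and the protease Ide (0.55 ± 0.10, limma, adjusted p = 0.00251, or 0.31 averaged over its 3 probe sets) had the largest rises. The ubiquitin ligase Trim37 (-0.79 ± 0.10, limma, adjusted p = 3.61e-04) and the reductase Ptgr3 (-0.41 ± 0.09, limma, adjusted p = 0.00673, or -0.26 averaged over its 2 probe sets) had the largest falls. Catalase, the defining enzyme of the peroxisomal matrix, singled out after its value was seen, was higher by 0.40 ± 0.09 (Cat, limma, adjusted p = 0.00839). With the spread of each gene alone Cat did not pass (no shared prior, all genes, adjusted p = 0.0529).

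Nuclear receptors of the PPAR, RXR and LXR families and PPAR coactivators gave 2 higher and 1 lower of 10. Among all genes 18.2% were higher and 17.5% lower, and with the replicate block 19.4% and 19.7%. Rxrg was higher (1.18 ± 0.14 SE, limma, adjusted p = 2.70e-04, or 0.67 averaged over its 2 probe sets). The coactivator Ppargc1a was lower (-0.75 ± 0.18, limma, adjusted p = 0.00859, or -0.45 averaged over its 3 probe sets), and did not pass with the spread of each gene alone (no shared prior, all genes, adjusted p = 0.0922). Pparg was higher by 0.29 ± 0.10 (limma, adjusted p = 0.0483), a call that held in 1 of 8 fits that left out an array. Ppara, the receptor best known for control of peroxisomes, did not pass. With the replicate block 3 were higher and 2 lower of the 10, the gains being the coactivator Ppargc1b (0.48, limma, adjusted p = 0.0533 without the block and 0.00400 with it) and the receptor Rxrb (-0.29, 0.0544 and 0.0482).

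Pxmp4, a small peroxisomal membrane protein, followed the replicate number, and its difference between the populations did not pass. It read 0.3, 0.56, 1.129 and 1.797 in A2B5+ replicates 1 to 4, and 0.317, 0.871, 1.532 and 2.396 in GalC+ replicates 1 to 4. The arrays with number 1 were the lowest in both populations and those with number 4 the highest. Its SD within a population, 1.20 on the log2 scale, ranked 1 among the 14217 genes. A test of the replicate number, added after these values were seen, gave Pxmp4 an adjusted p of 0.00253 and the largest F of all genes (limma, moderated F, 0.556% of genes passed). The other probe set followed a similar course, at 0.609, 0.629, 1.07 and 1.442 in A2B5+ and 0.575, 0.93, 1.564 and 1.191 in GalC+. Pearson's correlation between the 2 probe sets over the 8 arrays, which share the RNA, was 0.92. Its adjusted p for the replicate number was 0.118 (limma, moderated F, 0.383% of probe sets passed).

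The difference of Pxmp4 between populations depended on how this spread was treated. The log2 fold change was 0.39 ± 0.67 SE (limma, adjusted p = 0.677). Within numbers 1 to 4 GalC+ was higher by 0.08, 0.64, 0.44 and 0.42, and with the replicate number as a block Pxmp4 passed (limma, adjusted p = 0.0199). After quantile normalization the log2 fold change was -0.088, and it did not pass with that block (limma, adjusted p = 0.831). Its other probe set gave -0.08, 0.56, 0.55 and -0.28 within the numbers. With the block 8 members were higher and 3 lower, the gains being Pex2 and Pxmp4, where 39.1% of all genes passed, 19.4% higher and 19.7% lower.

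**Figure D4:**
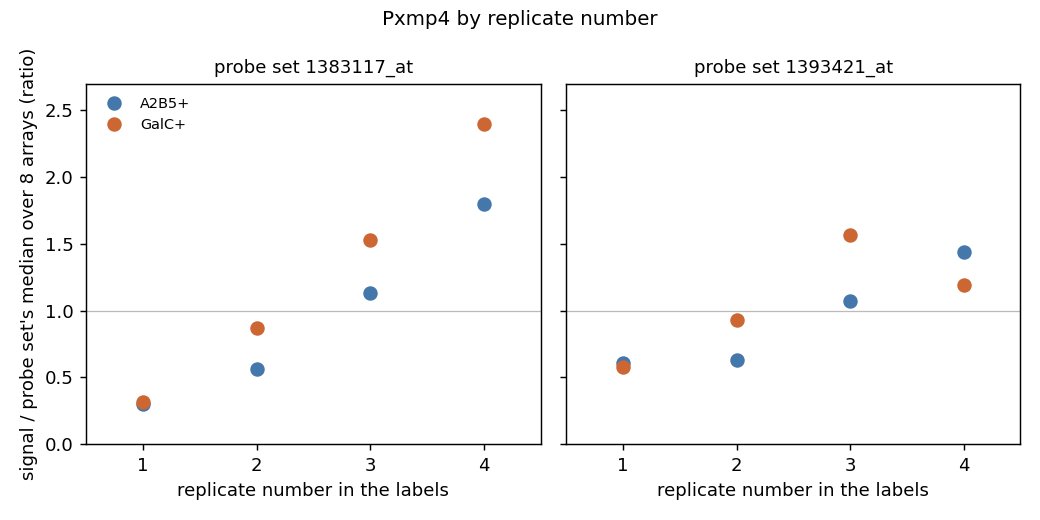
Ratio of each array's signal to the probe set's median over the 8 arrays (y axis) for the 2 probe sets of Pxmp4, by the replicate number in the labels (x axis), A2B5+ in blue and GalC+ in orange, with a point for each array. In the left panel both populations are lowest at number 1 (0.3 and 0.317) and highest at number 4 (1.797 and 2.396); in the right panel number 1 is the lowest in both.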

How the data were processed

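Per the submitters' processing notes, RMA summarised the array signals (version not given in the sources used here). For every probe set the deposited file holds a linear ratio: an array's signal over the median of all 8 arrays. No source says so, but each row of the deposited table has a median of 1 within 5e-04. Such a ratio carries no level, so probe sets near background, whose folds are compressed, could not be set aside. Precision is limited by the number of arrays.

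The ratios were put on a log2 scale with no pseudocount, after 57 control probe sets were left out. Probe sets with a single symbol in the platform annotation (20826 of 31042) gave the genes, each read from its probe set of largest variance over the 8 arrays. Populations were compared by limma (version 3.58.1, R 4.3.3; lmFit, eBayes, two-sided), GalC+ minus A2B5+, with Benjamini-Hochberg adjustment over all genes or all probe sets and a threshold of 0.05. The alternatives were other scalings, a replicate block, a trended and robust prior, Welch's t-test, a stricter threshold and a pseudocount. Array weights, averaging the probe sets of a gene, and leaving out each array were the others. Welch's t-test takes the spread of each gene within each population, with no shared prior and no equal spread assumed. The members and lists were chosen with earlier results of these data known. All members measured are accounted for, and some genes the rule could take are not reported here; from each further list the 2 largest rises and falls past the threshold are named. Replicates of a population come from separate litters. The p-values set the difference between the populations against the spread among those litters and their sorts.

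Replicate numbers come from the labels, which do not say that a number marks a shared litter. Deviations from the population means over all genes correlated between arrays of the same number, at 0.47, 0.12, 0.34 and 0.21 for numbers 1 to 4. Arrays of different numbers gave -0.26 to 0.125, and 2 of these 12 pairs lay above the same-number value of number 2 (0.116). Each same-number value was above 0.1, and the block is therefore given where it changes a call.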

Additional observations from a re-analysis of the deposited data

Results flagged for a closer look

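In 6 of the 76 groups of 4 arrays formed by the 38 members, 1 array stood apart from the others of its population by more than Dixon's 95% limit; chance gives about 1 in 20. For Abcd2, GalC+ replicate 2 read 0.577 against 0.85 to 0.906 on the other GalC+ arrays. For Phyh, GalC+ replicate 3 read 1.494 against 0.848 to 0.893, and for Pex10, GalC+ replicate 1 read 1.005 against 1.205 to 1.231. For Hacl1, A2B5+ replicate 3 read 0.798 against 0.974 to 1.01. For Acox2, A2B5+ replicate 2 read 0.88 against 0.993 to 1.012, and for Acox3, A2B5+ replicate 3 read 1.201 against 0.958 to 0.994.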

How the results depend on the processing

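Far1, Agps, Ehhadh and Pex5l kept their call and direction in all 17 alternatives. Among the other called members none turned its sign. The 6 higher and 3 lower genes became 4 and 1 by Welch's t-test, 4 and 1 at an adjusted p under 0.01, and 5 and 2 with a trended and robust prior. They became 6 and 2 with array weights, and 7 and 3 where probe sets were averaged per gene (gaining Amacr and Pex2, losing Pex11a). Of all 14217 genes 5079 passed in the main fit, 3390 by Welch's t-test and 3137 at an adjusted p under 0.01. The trended and robust prior passed 5148 of all genes, array weights 5241 and averaging 5008. The 8 higher and 2 lower probe sets became 4 and 1 by Welch's t-test, and 5 and 0 at an adjusted p under 0.01. Leaving out 1 array gave 5 to 8 higher and 2 to 4 lower genes, and 6 to 10 higher and 2 to 4 lower probe sets (4 lower without GalC+ replicate 3). In those fits 4071 to 5084 of all genes passed. With the replicate block 8 genes were higher and 3 lower, and 10 and 3 probe sets. At the gene level no other member's call than those of Pex2 and Pxmp4 changed. Among probe sets that of Pex26 was gained as well (limma, adjusted p = 0.0456 with the block). Of the members that turned their sign, Pxmp4 was called with the block and Phyh without GalC+ replicate 3, and the others in no setting run. With quantile normalization Acox3 became -0.037, Hsd17b4 -0.0024, Pex14 -0.0037, Pex7 -0.035 and Pxmp4 -0.088 (also -0.088 with the block, an alternative chosen after seeing the data). Median centring gave Acox3 -4.9e-05 and Pex14 -0.0048, array weights Pex19 0.0073 and Pex7 -0.013, and the mean of its probe sets Pex5 -0.012. Leaving out 1 array moved Acox2 over -0.016 to 0.096, Acox3 over -0.010 to 0.10, Gnpat over -0.25 to 0.012, Hacl1 over -0.017 to 0.13, Hsd17b4 over -0.017 to 0.069, Pex14 over -0.023 to 0.075, Pex19 over -0.076 to 0.036, Pex7 over -0.082 to 0.12, Phyh over -0.24 to 0.031 and Pxmp4 over -0.057 to 0.95. The cause was not tested, other than that fewer arrays enter these fits. The values hold no brightness, so signal over background limits every call to an unknown degree.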
